A study of Mus musculus with 6 samples.

Results

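The enolases of MS-5 cells, a mouse bone marrow stromal line, were followed from culture alone to co-culture with SKM-1, a human acute myeloid leukaemia (AML) line. Enolase turns 2-phosphoglycerate into phosphoenolpyruvate, the step of glycolysis that comes just before pyruvate kinase, and also runs in reverse when glucose is made. The active enzyme is a dimer, and most tissues build it from alpha subunits, the product of Eno1, while mature neurons use gamma subunits from Eno2 and skeletal muscle uses beta subunits from Eno3. Eno4 is known from sperm. Eno1b is a mouse copy of Eno1, and its transcript Eno1b-202 has 1 exon.

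These 5 genes, Eno1, Eno1b, Eno2, Eno3 and Eno4, were taken by name from the 35968 genes with a transcript in the deposited data. They have 41 of the 116728 transcripts used, of which Eno1 has 11, Eno1b 2, Eno2 16, Eno3 8 and Eno4 4. On GRCm38, Eno1 lies on chromosome 4 (chr4:150236721-150248879, plus strand), Eno2 on chromosome 6 (chr6:124760053-124769673, minus strand), Eno3 on chromosome 11 (chr11:70657202-70662513, plus strand) and Eno4 on chromosome 19 (chr19:58943425-58971421, plus strand).

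RNA-seq libraries had been made from MS-5 cells grown alone (MS-5 only, libraries MO1, MO2 and MO3) and from MS-5 cells recovered after 24 hr with SKM-1 cells (co-culture, libraries MC1, MC2 and MC3). The co-cultures held 4 AML cells for each stromal cell, with the AML cells added at 750000 per ml to a confluent stromal layer, and the cell types were then separated by washing and a mild trypsin step. Both groups are the same cell line, and the labels do not say that the 3 libraries of a group came from separate cultures, so that p-values measure the spread between these libraries. The reads were assigned to mouse transcripts only, and how far human RNA left in the co-culture samples added to the counts of like mouse transcripts was not tested. Libraries held between 23978881 and 35694987 estimated counts. MO2 and MC3 stood apart from the other 4 libraries, with mitochondrial genes at 6.03% and 5.89% of the counts against 10.5% to 13.1%, and neither the labels nor the paper's text names a batch. Of 10 stromal markers, 9 passed the filter on low counts, with Col1a1 between 48122 and 124483 counts, and Lum had at most 1 count in any library. Of those 9, 0 were called by edgeR, DESeq2 or limma in a comparison of the groups alone, with 1 at an unadjusted p under 0.05 by edgeR, and 3 were called by edgeR when MO2 and MC3 had a term of their own, a fit that called 30.2% of all genes.

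The 3 main enzymes are separate genes with like coding sequences of 434 codons each in Eno1-202, Eno2-201 and Eno3-201. To show how far reads can tell them apart, 30 bases of the coding stretch that holds the enolase signature, near the active site, are given for each on GRCm38, with capitals for bases that differ from Eno1-202. The 10 codons code for the same residues in all 3.
Eno1-202 (chr4:150247612-150247641, plus strand): aaagtgaaccagatcggctctgtgaccgaa
Eno2-201 (chr6:124763016-124763045, minus strand): aaGgtCaaTcagatcggctcGgtCacAgaa
Eno3-201 (chr11:70661550-70661579, plus strand): aaGgtCaaccagatcggctcCgtgacGgaG
Eno2-201 differed from Eno1-202 at 6 of these bases and Eno3-201 at 5. Over whole transcripts, each was cut into all its windows of 31 bases. The windows were looked for in every other transcript used, on both strands. Eno2 and Eno3 shared 100 windows or more with 0 other genes, and Eno4 with 1, Hspa12a. Eno1 shared that many with 5 genes, namely Eno1b and the processed pseudogenes Gm4735, Gm5855, Gm8483 and AC150274.1. Of the 1717 windows of Eno1b-202, 1509 were also in Eno1-202, 77 were found in Eno1b alone and 0 in that transcript alone. The split of counts between Eno1 and Eno1b is therefore uncertain.

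Levels were first compared as TPM, the deposited measure per transcript length, which allows genes to be set side by side. In MS-5 only, the order was Eno1b, Eno1, Eno3, Eno2 and Eno4, with mean levels of 534 ± 112, 324 ± 59.2, 234 ± 33.0, 0.693 ± 0.423 and 0.0941 ± 0.0735 TPM (SD, n = 3). No neighbours in this order overlapped, although the lowest Eno1 level, 275 TPM in MO2, was close to the highest Eno3 level, 272 TPM in MO1. In co-culture the order stayed the same, at 986 ± 115, 590 ± 54.5, 221 ± 25.0, 40.2 ± 43.1 and 0.0558 ± 0.0485 TPM (SD, n = 3). By mean level among 21951 protein-coding genes, Eno1b went from rank 200 to rank 128, Eno1 from 330 to 187 and Eno2 from 11355 to 2951, while Eno3 had rank 461 in both groups. The mean level of Eno2 in co-culture rested on MC2, and without it was 15.3 TPM, at rank 6319.

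**Figure D1:**
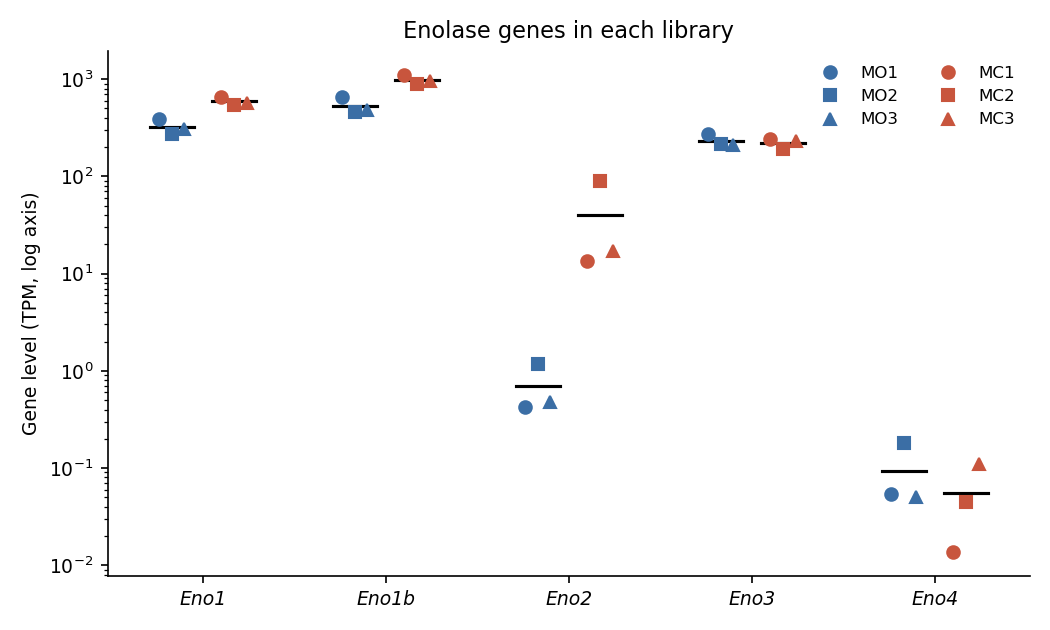
Level of each enolase gene in TPM (log axis) in the 3 MS-5 only libraries (blue) and the 3 co-culture libraries (red), with black lines at the group means. For Eno1, Eno1b and Eno2, all co-culture points lie above all MS-5 only points, as was so for 7.68% of the 13221 genes tested. Eno3 stayed between 192 and 272 TPM, and MC2 held the highest Eno2 level, 89.9 TPM.

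The summed level of the family was higher in co-culture on TPM, without overlap. Added up over the 5 genes, the level was 1324, 951 and 1005 TPM in MO1, MO2 and MO3 and 2018, 1721 and 1770 TPM in MC1, MC2 and MC3. The means differed 1.68-fold. An exact two-sided permutation test gave p = 0.1, the smallest that 3 libraries against 3 can give. On normalised read counts scaled to library size by TMM (CPM below), the total was 1.67-fold higher in the mean, but the groups overlapped (exact permutation p = 0.2).

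Eno1, the alpha enolase, had 390, 275 and 309 TPM in MO1, MO2 and MO3 and 651, 546 and 572 TPM in MC1, MC2 and MC3. The groups did not overlap on this scale, as was so for 7.68% of the 13221 genes tested in the direction of co-culture. On CPM they did overlap, since MO1 (638) lay above MC3 (584). Scaled to library size without TMM, they did not (at most 591 against at least 686), as was so for 10.1% of all genes. In the gene counts, edgeR's quasi-likelihood test gave a log2 fold change of 0.85 (SE 0.37) with a Benjamini-Hochberg adjusted p of 0.368, above the threshold of 0.1 used here. Eno1 had 15978, 9039 and 11255 counts in MS-5 only against 35336, 22483 and 20075 in co-culture.

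Eno1b had 662, 458 and 482 TPM in MS-5 only against 1114, 893 and 952 TPM in MC1, MC2 and MC3. It stood at 1.56 to 1.71 times the Eno1 level in every library. With 1509 of the 1717 windows of Eno1b-202 shared with Eno1-202, this ratio cannot show whether the genes moved together. On CPM the groups of Eno1b overlapped, with 967 in MO1 against 891 in MC3. The log2 fold change of Eno1b was 0.87 (SE 0.37, adjusted p = 0.368, edgeR). With the counts of both genes summed into 1 gene, the log2 fold change was 0.86 (SE 0.39, adjusted p = 0.389), and with all look-alike genes of Eno1 added it was 0.88 (SE 0.39, adjusted p = 0.382), a sum chosen after the shared windows had been counted.

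The call for Eno1 and Eno1b differed with the handling of MO2 and MC3. These libraries were set apart for their values in these data and not by a label. Between MO2 and MC3, Eno1 was 2.03-fold higher in co-culture on CPM, and between the means of the other 4 libraries it was 1.75-fold higher with no overlap. For Eno1b these values were 2.06-fold and 1.76-fold. When MO2 and MC3 were given a term of their own in the fit, the log2 fold changes were 0.88 (SE 0.12, adjusted p = 0.0124) for Eno1 and 0.89 (SE 0.14, adjusted p = 0.0155) for Eno1b by edgeR's quasi-likelihood test, and 13.9% of all genes tested were then called higher. With limma on log2(TPM + 0.5), which called 2.56% of all genes higher, adjusted p-values were 0.0518 and 0.0629, and with DESeq2 they were 0.167 and 0.152.

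Eno3, the beta enolase, had 272, 217 and 213 TPM in MO1, MO2 and MO3 and 240, 192 and 230 TPM in MC1, MC2 and MC3. The groups overlapped, with a log2 fold change of -0.11 (SE 0.30, adjusted p = 0.952, edgeR). On CPM, MC3 stood at 1.04 times MO2, and the means of the other 4 libraries differed 0.893-fold with overlap. Skeletal muscle markers, listed for the known use of Eno3 in muscle, were low in both groups. Myod1, Myog and Myh4, 3 of the 11 listed, had 0 counts in every library, and the 2 that passed the filter, Acta1 and Atp2a1, had adjusted p-values of 0.991 and 0.982. Their summed level was 11.3 to 28.2 TPM in MS-5 only against 14.6 to 27.5 TPM in co-culture, where Eno3 had 192 to 272 TPM.

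The make-up of the family differed between the groups, with less Eno3 beside Eno1 and Eno1b in co-culture. Eno3 held 20.5%, 22.8% and 21.2% of the summed enolase TPM in MO1, MO2 and MO3, and 11.9%, 11.2% and 13.0% in MC1, MC2 and MC3. The groups were far from overlapping, at 21.5% ± 1.16 and 12.01% ± 0.911 (SD, n = 3). The difference of -9.48 percentage points gave p = 0.1 in an exact permutation test, the smallest possible, and it lay between -9.97 and -8.84 when any 1 library was left out. As a ratio that does not depend on Eno2, Eno3 stood at 0.258 to 0.296 of the summed Eno1 and Eno1b level in MS-5 only and at 0.134 to 0.151 in co-culture.

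Eno1b held 50.0%, 48.2% and 48.0% of the family in MS-5 only against 55.2%, 51.9% and 53.8% in co-culture. Eno1 held 29.4%, 28.9% and 30.8% in MS-5 only against 32.2%, 31.7% and 32.3% in co-culture. Both were higher in every co-culture library (exact permutation p = 0.1 for each, n = 3 against 3). Shares of 1 total are not independent, since a gain of 1 gene lowers the others.

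**Figure D2:**
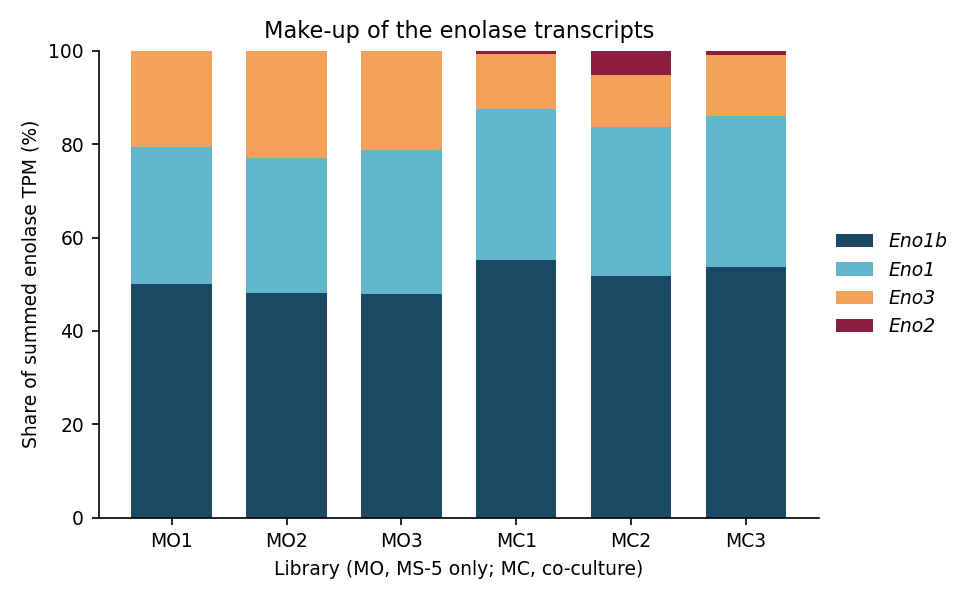
Share of the summed enolase TPM held by Eno1b, Eno1, Eno3 and Eno2 in each library, in percent, stacked to 100 (Eno4 held at most 0.0188% and is not visible). The Eno3 segment is between 20.5% and 22.8% in MS-5 only and between 11.2% and 13.0% in co-culture, and Eno2 is visible in MC2, at 5.22%.

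Eno2, the gamma enolase, was the only member that edgeR called in the gene comparison without a term for MO2 and MC3, and of the 13221 genes tested 3.71% were called higher (4.38% in either direction). It had 7, 19 and 6 counts in MO1, MO2 and MO3 against 175, 803 and 160 in the co-cultures MC1, MC2 and MC3. The groups did not overlap on CPM, as was so for 11.6% of the genes tested in the direction of co-culture. MC2 had by far the highest count. The log2 fold change was 5.18 (SE 0.99, adjusted p = 0.0745, edgeR). Leaving out MC2 gave 3.66 (adjusted p = 0.0314). Leaving out MO1, MO2 or MO3 gave log2 fold changes from 4.99 to 5.68, with adjusted p-values of 0.300, 0.149 and 0.290, and in each of these fits 0 genes of the whole table were called by edgeR, with 1478 to 2819 at an unadjusted p under 0.05.

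The Eno2 counts of co-culture were not spread over the gene. Most, 81.0%, 97.7% and 77.2% in MC1, MC2 and MC3, were assigned to 1 of its 16 transcripts, Eno2-204 (chr6:124766222-124768331, minus strand). It is 565 bases long, has 5 exons and is annotated as a target of nonsense-mediated decay, the pathway that removes transcripts with an early stop codon. Eno2-201 is the full-length coding transcript, with 12 exons. Eno2-204 begins in exon 2 of Eno2-201 and runs on into the intron after it. It leaves out the 134-base exon 6 and ends within exon 7. Its exons 4 and 5 meet at a junction that no other transcript used here has. The bases that join there are shown with those of Eno2-201 on GRCm38, with capitals for the bases after the junction.
Eno2-204, exons 4 and 5 (chr6:124766313-124767047, minus strand): ggactgagaataaatGCCTTTAATGTGATC
Eno2-201, exons 5 and 6 (chr6:124766650-124767047, minus strand): ggactgagaataaatCCAAGTTTGGGGCCA
Eno2-201, exons 6 and 7 (chr6:124766313-124766545, minus strand): atcctgcctgtgccgGCCTTTAATGTGATC
Of the 535 windows of Eno2-204, 29 were found only in that transcript, 338 were also in Eno2-201 and 535 lay only in Eno2. The estimated counts do not say which windows the reads covered.

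**Figure D3:**
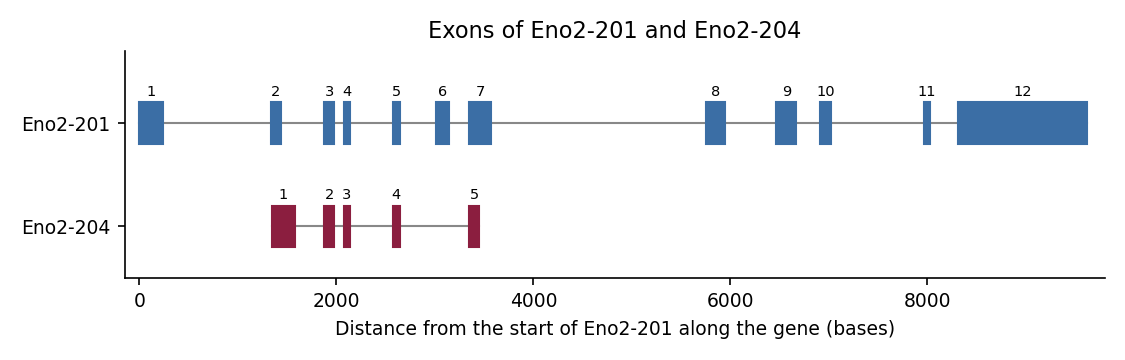
Exons (boxes, numbered) of Eno2-201 and Eno2-204 by distance in bases from the start of Eno2-201, in the direction of transcription. Eno2-204 has 5 exons, lacks exon 6 of Eno2-201 and ends within exon 7.

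Eno2-204 had estimated counts of 0.383, 2.84 and 2.0 in MO1, MO2 and MO3 and 142, 785 and 124 in MC1, MC2 and MC3. The other 15 transcripts together had 6.62, 16.2 and 4.0 in MS-5 only against 33.2, 18.3 and 36.4 in co-culture. The excess of MC2 was thus in Eno2-204, and MC2 had the lowest co-culture count for the rest of the gene. Eno2-201 itself had at most 1.8 counts in MS-5 only against 8.5, 8.6 and 19.3 in co-culture.

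As shares of the Eno2 level in TPM, Eno2-204 held 10.4%, 34.1% and 53.9% in MS-5 only against 93.1%, 99.1% and 92.5% in co-culture. The shares of MS-5 only rest on at most 19 counts per library, and Eno2 met the minimum of 5 TPM for share tests in co-culture only. The difference was 62.1 percentage points (exact permutation p = 0.1, the smallest possible), and no conclusion is drawn from this test. In the test across transcripts, Eno2-204 had a log2 fold change of 7.69 (SE 1.40, adjusted p = 0.239, edgeR) with groups that did not overlap, as was so for 13.4% of the 34440 transcripts tested. In this fit 0 transcripts passed the threshold (0%) and 2131 had an unadjusted p under 0.05. With the term for MO2 and MC3, 94 transcripts were called higher and 44 lower by edgeR, and 0 of the 13 enolase transcripts tested were among them.

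**Figure D4:**
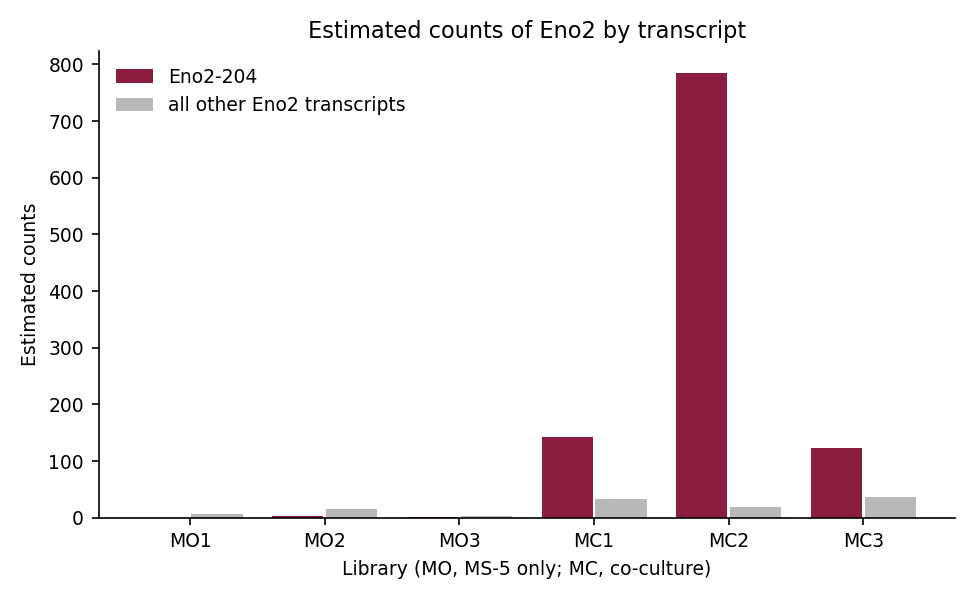
Estimated counts of Eno2-204 (dark red) and of all other Eno2 transcripts together (grey) in each library. Eno2-204 reached 785 counts in MC2, while the other transcripts held between 4.0 and 36.4 counts in all libraries.

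With Eno2-204 left out of the gene, a choice made after its counts were seen, Eno2 had 0.264, 0.514 and 0.181 CPM in MS-5 only against 1.01, 0.757 and 1.06 CPM in co-culture. The groups still did not overlap, but the log2 fold change was 1.498 (SE 0.49) and the gene was no longer called (adjusted p = 0.219, edgeR). The Eno2 share of the family was then between 0.0218% and 0.0818% in MS-5 only and between 0.0457% and 0.0736% in co-culture, with overlapping groups (exact permutation p = 0.6). With all its transcripts, it held 0.0321%, 0.124% and 0.0472% in MS-5 only against 0.662%, 5.22% and 0.973% in co-culture.

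Eno4 had 3, 8 and 2 counts in MO1, MO2 and MO3 and 1, 1 and 4 in MC1, MC2 and MC3. It did not pass the filter on low counts. When all genes with at least 1 count in a library were kept, its log2 fold change was -1.24 (SE 0.98, adjusted p = 0.746, edgeR), and at 1 to 8 counts per library no difference could be told from the spread. Of the 7 sperm markers, 0 had 10 counts or more in any library.

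The other isoforms were described as shares of the TPM of their gene. Of the 15 enolase transcripts with at least 1 TPM in a group mean, 13 had shares that overlapped between the groups, the exceptions being Eno2-204 and Eno1-205. Over all 28724 transcripts at that level, in genes with at least 2 transcripts and 5 TPM, 8.77% had shares that did not overlap, so that 2 of 15 is not a result about the enolases. Eno1-202, the full-length coding transcript, held 93.7%, 90.5% and 91.3% of Eno1 in MS-5 only against 95.7%, 93.6% and 87.6% in co-culture. The 6 Eno1 transcripts annotated with a retained intron held 0.596%, 3.39% and 0.625% in MS-5 only against 0.344%, 1.92% and 5.27% in co-culture. These shares were highest in MC3 and MO2, and the groups overlapped. Eno1-201, a coding transcript with 8 exons, was also highest there, with 4.56 TPM in MO2 and 15.5 TPM in MC3 against 0.595 to 1.34 TPM elsewhere. Eno1-205, a coding transcript of 773 bases with 7 exons, held 1.22%, 1.74% and 2.68% of Eno1 in MS-5 only against 1.01%, 0.475% and 0.800% in co-culture. These shares did not overlap and were lower in co-culture, while its levels in TPM overlapped, and no test was made of this share.

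Eno1b-202 held at least 99.9% of Eno1b in every library, and the other Eno1b transcript had at most 10 counts. In Eno3, Eno3-201 held 75.6% to 83.0% in MS-5 only against 80.2% to 82.9% in co-culture. Eno3-202, a coding transcript of 1564 bases, held 20.7%, 13.6% and 21.2% in MS-5 only against 16.4%, 15.5% and 12.4% in co-culture. For both the groups overlapped, with exact permutation p-values of 0.4 and 0.3 (n = 3 against 3).

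The evenness of the change was described by the excess of each co-culture library over the mean of MS-5 only, in CPM. The ratio below, of MC2 to the mean of MC1 and MC3, was chosen with earlier results of these data known. For Eno2 the excess was 4.95 in MC1, 33.0 in MC2 and 4.27 in MC3, so that MC2 had 7.15 times the mean excess of MC1 and MC3. For Eno1 it was 600, 455 and 106 CPM, a ratio of 1.29, and for Eno1b 911, 655 and 183 CPM, a ratio of 1.20. On TPM the ratios were 6.11 for Eno2, 0.774 for Eno1 and 0.718 for Eno1b. The excess of MC2 in Eno2 was thus seen on both scales, while in Eno1 and Eno1b the ratio was above 1 on one scale and below 1 on the other.

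Within Eno2, the ratio was 8.34 for Eno2-204 and 0.611 for the rest of the gene, both in CPM. Among the 491 genes called higher in the whole table, 76.0% had a ratio over 3, with a median of 5.98. Among all 4093 genes tested with a positive excess in MC2 and in the mean of MC1 and MC3, 29.2% had one over 3, with a median of 1.29. Eno1 and Eno1b were close to that last median on CPM.

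The look-alike genes of Eno1 fell on both sides of this difference. Gm4735 shared 1139 windows with Eno1-202 and had 1850, 972 and 1191 counts in MS-5 only against 3644, 2532 and 2580 in co-culture. Its log2 fold change, 0.88 (SE 0.33, adjusted p = 0.290, edgeR), and its ratio, 1.30, were near those of Eno1. Gm5855 shared 326 windows and had 1.0, 11.1 and 2.0 counts in MS-5 only against 335, 1488 and 236 in MC1, MC2 and MC3. Gm33707 shared 60 windows and had 9.0, 10.7 and 5.0 counts in MS-5 only against 839, 3776 and 625 in co-culture.

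Both Gm5855 and Gm33707 rose, by log2 fold changes of 7.21 and 7.70 (SE 1.25 and 1.13, adjusted p = 0.0734 for each, edgeR), and their ratios were 7.35 and 7.25. In MC2 the level of Gm33707, 424 TPM, came near that of Eno1, 546 TPM. Gm33707, which shares fewer than 100 windows, was named after its counts were seen. How reads were split between Eno1 and these pseudogenes was not tested, nor how far human RNA left from SKM-1 cells added to their counts.

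Some leukocyte markers moved with Eno2. Of the 12 listed, 10 were tested and 6 rose in co-culture by edgeR, against 3.71% of all genes, among them Ptprc (CD45, the common leukocyte surface phosphatase) with 2, 10 and 1 counts in MS-5 only against 113, 410 and 182 in co-culture. Their summed level was 22.6 to 38.8 TPM in MS-5 only against 136, 656 and 193 TPM in MC1, MC2 and MC3, with an MC2 ratio of 6.33 on CPM. Irf8 had 0 counts in all MS-5 only libraries and 46, 191 and 74 in co-culture. The 4 that were tested and not called were Lcp1, with a log2 fold change of 1.17, Itgb2 with 0.60, Cd53 with -0.11 and Arhgdib with -0.16, and in all of these but Lcp1 the groups overlapped. The part of leukocyte RNA in the Eno2 result was not tested, nor how far human RNA left from SKM-1 cells added to these counts. In bulk RNA a different number of cells of a type and a different amount of RNA per cell cannot be told apart.

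The neuronal markers, listed for the known use of Eno2 in neurons, had few counts. Of 11 listed, 4 passed the filter, and 0 of them were called by edgeR or limma without a term for MO2 and MC3, 1 by DESeq2, which called 9.59% of all genes, and 1 by edgeR with that term, which called 30.2%. Tubb3, a tubulin also found outside neurons, had 58, 46 and 28 counts in MS-5 only against 172, 368 and 103 in co-culture (log2 fold change 2.21, SE 0.64, adjusted p = 0.162, edgeR) and was the 1 gene with an unadjusted p under 0.05. The summed level of the list was 2.34 to 5.63 TPM in MS-5 only against 5.07 to 11.3 TPM in co-culture.

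Around the enolase step, the other glycolysis genes gave a background for these values. Of 17 listed from glucose uptake to lactate, all were tested and 4 rose by edgeR, against 3.71% of all genes. These were the glucose transporters Slc2a1 (log2 fold change 1.42, SE 0.17) and Slc2a3 (5.90, SE 1.13), the hexokinase Hk2 (1.11, SE 0.22) and the liver-type phosphofructokinase Pfkl (1.595, SE 0.23), with adjusted p-values between 0.0734 and 0.0779. Slc2a3 had 1, 2 and 0 counts in MS-5 only against 27, 131 and 42 in co-culture, with most in MC2.

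The median log2 fold change of the list was 1.11, against -0.02 over the 13221 genes tested, and 17 of 17 values were positive, against 47.5% of all genes. In 13 of the 17 the groups did not overlap with co-culture higher, against 11.6% of all genes. Eno1 and Eno1b, at 0.85 and 0.87, lay below that median and between Gapdh (0.67) and Pgk1 (0.90). With the term for MO2 and MC3, 17 of the 17 were called higher, in a fit that called 13.9% of all genes higher. The summed level of the list was 7151 to 8486 TPM in MS-5 only against 12858 to 15958 TPM in co-culture, a 1.86-fold difference beside 1.68-fold for the enolases.

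**Figure D5:**
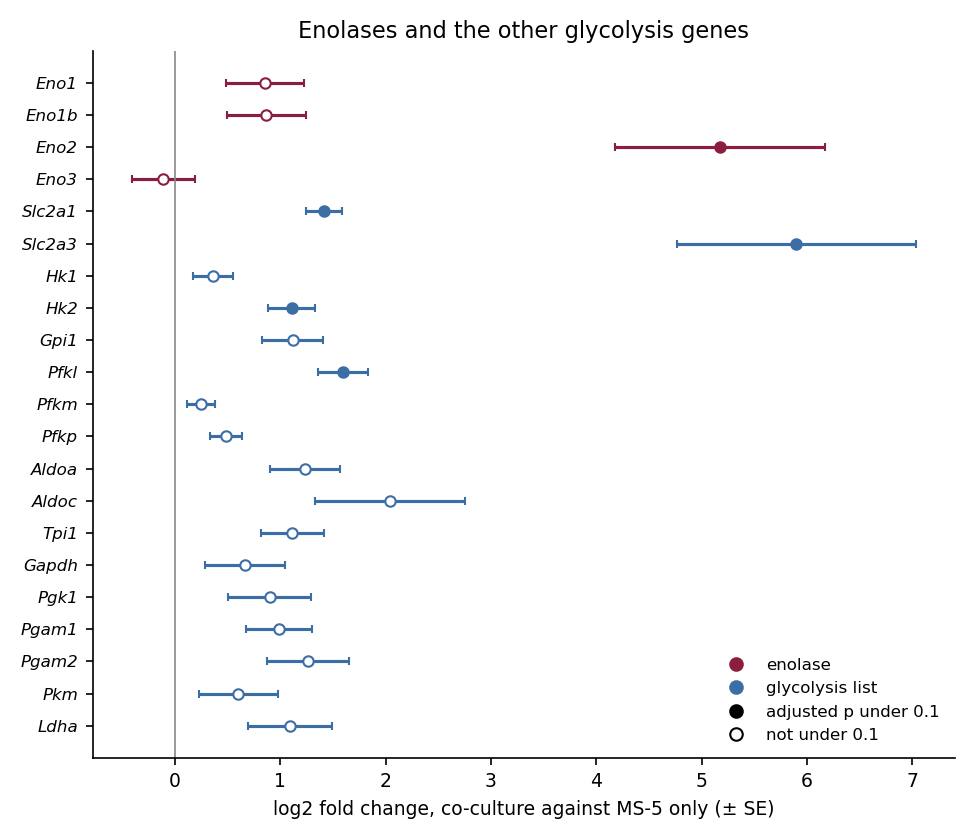
Log2 fold change of co-culture against MS-5 only with its standard error, from edgeR's gene fit, for the 4 enolases tested (dark red) and the 17 other glycolysis genes (blue), filled where the adjusted p was under 0.1. Eno2 and Slc2a3 stand apart at 5.18 and 5.90, Eno1 and Eno1b lie among the other genes of the pathway, and Eno3 is at -0.11.

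Genes that make or use the substrates of enolase were taken as a list of 7. Of these, 5 were tested and 0 were called by edgeR, with 2 at an unadjusted p under 0.05, where this fit called 4.38% of all genes. DESeq2 called 1 (9.59% of all genes), limma 1 (2.69%) and edgeR with the term for MO2 and MC3 called 3 (30.2%). The phosphoglycerate mutase Pgam1, which makes 2-phosphoglycerate, had a log2 fold change of 0.99 (SE 0.31, adjusted p = 0.204, edgeR) and Pgam2 one of 1.26 (SE 0.39, adjusted p = 0.190, edgeR). Pkm, the pyruvate kinase that takes up phosphoenolpyruvate, had 0.60 (SE 0.37), with groups that overlapped on CPM but not on TPM (1357 to 1728 against 2065 to 2535), and Bpgm, the bisphosphoglycerate mutase, had -0.29 (SE 0.19). The liver-type pyruvate kinase Pklr had 0 counts in every library. Pck2, the mitochondrial enzyme that makes phosphoenolpyruvate from oxaloacetate, had 0.26 (SE 0.17).

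The genes most like a member were found by the root mean square difference of log2 CPM, centred on the mean over the 6 libraries, among 12318 protein-coding genes tested. For Eno1 the 5 nearest were Pgk1 (0.0683), Gapdh (0.114), Ldha (0.120), Pgam1 (0.127) and Tmem45a (0.135), where the median over all candidates was 0.686. Pgk1, Gapdh, Ldha and Pgam1 are glycolytic genes of the list above. In all 5, as in Eno1, MO2 was the lowest library and MC1 the highest, followed by MC2.

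For Eno2 the 4 nearest were Arhgap15 (0.185), Igfbp2 (0.232), Hmgb3 (0.246) and Cybb (0.265), with a median over all candidates of 2.46. Arhgap15, which encodes a GTPase-activating protein, had 0, 1 and 0 counts in MS-5 only against 36, 180 and 29 in co-culture. Cybb, which encodes a subunit of the phagocyte NADPH oxidase, had 7, 26 and 6 counts in MS-5 only against 134, 632 and 165 in co-culture. All 4 were called higher by edgeR in the gene comparison, with log2 fold changes of 4.62 to 7.53, and each was highest in MC2. These genes were picked for their likeness over the same libraries, so that their values are a description.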

How the data were processed

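RNA-seq of MS-5 cells was used, with 3 libraries of cells grown alone and 3 of cells grown with SKM-1. The study's methods name stranded mRNA libraries. The authors quantified the reads with kallisto (0.43.0 per the submitters' processing notes, which also list FastQC 0.11.7, sleuth 0.30.0 and mm10) against mouse transcripts, and deposited an estimated count for each transcript without normalization between libraries. They also deposited a TPM value for each transcript, which corrects for length and depth, and the length and effective length in bases. No column of other samples was found.

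Identifiers were matched to GENCODE M21 (GRCm38) by version and length: 116728 of 118489 matched, and the other 1761, with 0.476% to 0.562% of the counts, were left out. Gene counts are the rounded sums over transcripts. After filterByExpr (13221 of 35968 genes) and TMM (factors 0.923 to 1.17), groups were compared with the quasi-likelihood test of edgeR 4.0.16 in R 4.3.3, Benjamini-Hochberg adjusted over all genes, at a threshold of 0.1. The paper's results text uses the same level and its methods name a stricter one of 0.01, and its sleuth test was not used here. Transcripts were tested likewise over 34440 transcripts. The standard error was the size of the log2 fold change over the root of its F statistic. Single values were compared by exact two-sided permutation tests over libraries (Python 3.11.15). The tests were first tried on simulated counts. Windows of 31 bases were taken from member transcripts on the transcript strand and looked for on both strands of the GENCODE M21 transcripts used. A look-alike gene shares at least 100 with a member, with Gm33707 named beside them for its counts after these were seen.

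Alternatives were library size or DESeq2 size factors in place of TMM, DESeq2 1.42.0, limma 3.58.1 on log2(TPM + pseudocount) at 0.5, 0.1 and 1, other filters, an effective length offset, a replicate block, a term that sets MO2 and MC3 apart, 1 library left out at a time, and thresholds of 0.05 and 0.01. The genes named are the members, their transcripts with at least 1 TPM in a group mean, the glycolysis, neighbouring-step, stromal, leukocyte, neuronal, skeletal muscle and sperm lists, and the 5 genes nearest to Eno1 and to Eno2. Eno2-201, as the full-length reference, Gm5855, Gm4735, Gm33707, Gm8483, AC150274.1 and Hspa12a fall outside that rule. The members, the lists and the MC2 ratio were chosen with earlier results of these data known. Some results, sequences and coordinates are not reported here.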

Additional observations from a re-analysis of the deposited data

How the results depend on the processing

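Of the 4 enolases tested, 1 (Eno2) was past the threshold. With the term for MO2 and MC3 as a covariate, and with limma at each pseudocount, 3 were past it, as Eno1 and Eno1b joined Eno2. The covariate gave log2 fold changes of 0.88 and 0.89, and limma gave 0.87 and 0.90 at each pseudocount. At thresholds of 0.05 and 0.01, and with Eno2-204 left out (Eno2 at 1.498, an alternative chosen after seeing the data), 0 were past it by edgeR, with 1 at an unadjusted p under 0.05 in the full fit. Leaving out each library gave 0 to 1, and moved Eno1 from 0.59 to 1.14, Eno1b from 0.61 to 1.18, Eno2 from 3.66 to 5.68 and Eno3 from -0.34 to 0.14 in log2 fold change. Eno2 lost its call without MO1, MO2 or MO3. With the effective length offset, the log2 fold change was 6.08 for Eno2 and 8.81 for Slc2a3. Over all genes, 579 were past the threshold, against 3999 with the covariate, 1268 with DESeq2, 356 and 224 with limma at pseudocounts of 0.5 and 1, 2 and 0 at thresholds of 0.05 and 0.01, and 0 to 549 without 1 library.

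The glycolysis list had 4 genes past the threshold, and 7 with library size only, 17 with the covariate, 11 with DESeq2, 8, 10 and 8 with limma at pseudocounts of 0.5, 0.1 and 1, 0 at thresholds of 0.05 and 0.01, and 0 to 6 without 1 library. The neighbouring-step list had 0, and 1 with library size only, 3 with the covariate, 1 with DESeq2 and 1, 2 and 1 with limma. The MC2 ratio of Eno1 and Eno1b was 0.774 and 0.718 on TPM. Signs turned in differences within the spread of the libraries. Eno3-201 was at 0.01 (log2) and at -0.023 with library size only, from -0.19 to 0.24 without 1 library. The Eno1-202 share differed by -1.22 to 2.84 percentage points without 1 library. Without MC3, Eno1-201 went from 1.47 to -0.20 and Eno1-203 from 1.23 to -0.16 in log2 fold change. Eno1-205 went from -0.38 to 0.12 without MO3, and Eno3-205 from -0.21 to 0.17 without MO1. The causes of these changes were not tested.

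The replicate numbers did not pair the libraries. The correlation, across genes, of deviations from the group mean was 0.53, -0.29 and -0.52 for the pairs numbered 1, 2 and 3, and MO2 correlated best with MC3 (0.73), where genes are not independent replicates. With the replicate number as a block, 443 genes were higher and 1 was lower, 371 of them among the 579, and Eno2 was at 4.82 (adjusted p = 0.0137, edgeR). Paired sign-flip tests of the shares cannot give a p below 0.25. The depth limits Eno4 and the Eno2 transcripts other than Eno2-204, which had at most 19.3 counts each.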
